A study of Mus musculus with 4 samples.

Results

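The genes described here are the Zfp-named zinc finger genes expressed in mouse embryonic stem (ES) cells, compared between cells with both Chd2 alleles mutated (Chd2mut/mut) and wild-type (WT) cells. A gene was included when its symbol in the deposited expression table was Zfp followed by a number and at most 1 letter, and when the mean of its FPKM in Chd2mut/mut and WT was at least 1. FPKM is a measure of RNA level in sequenced fragments, corrected for the length of the transcript and the depth of the library. The members were thus chosen by measured values, their FPKM in both genotypes, and levels near the threshold are described and not tested. Such a symbol was carried by 354 of the 23309 rows. Of these 2 were left out by name, and 260 of the remaining 352 reached the threshold. The same level was reached by 10766 genes of the whole table, of which the 260 made up 2.42%.

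Cells of both genotypes were of strain 129/Ola and of passage 10 to 20, and were grown on gelatin with 10% serum and 1000 U/ml of leukemia inhibitory factor. Chd2, which encodes an ATP-dependent chromatin remodeler, was mutated on both alleles in the first genotype, whose library titles read Chd2KO, and was wild type in the second. The labels do not say how the mutation was made, how many clones were used or how the lines are related. Total RNA of each genotype was sequenced in 2 libraries, named lot 1 and lot 2, and nothing in the labels says that the lots were separate cultures. The authors deposited 1 FPKM value per gene and genotype, so no value below has a replicate error, the depth is unknown, and the only significance available is the q-value and the yes or no call of the authors' deposited table. Chd2 itself was at 5.69 FPKM in Chd2mut/mut against 10.2 FPKM in WT, and the authors' deposited table calls it, with a log2 fold change of -0.84 and a q-value of 0.0103. All 6 ES cell markers examined were present, at 18.1 to 4380 FPKM in Chd2mut/mut and at 16.7 to 3844 FPKM in WT. The 3 primitive endoderm markers were at most 0.174 FPKM in Chd2mut/mut and 0.341 FPKM in WT, and the 3 mesoderm markers at most 0.246 and 0.233 FPKM in the same order of genotypes. Of 5 fibroblast markers only Thy1 reached a mean of 1 FPKM, at 11.51 FPKM in Chd2mut/mut and 14.2 FPKM in WT, with Postn listed at 0 in both. Of 3 neural markers only Tubb3 did, at 49.1 FPKM in Chd2mut/mut and 50.7 FPKM in WT. In RNA from a whole culture, fewer cells that express a gene and less of its RNA per cell cannot be told apart.

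Zinc fingers of the C2H2 type are short protein loops in which a zinc ion is held by a pair of cysteines and a pair of histidines, and arrays of them read DNA sequence. In mammals the largest class of C2H2 proteins also carries a Krüppel-associated box (KRAB), through which the corepressor TRIM28 and the H3K9 methyltransferase SETDB1 are brought to chromatin, in ES cells above all at retroelements and imprinted loci. These genes lie in clusters that arose by duplication, so neighbours can be close in sequence. A Zfp symbol is a naming convention and not a protein class, and it also covers RNA-binding, ribosome-associated and CCCH-type proteins.

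The repeat that gives the family its name is shown for the pair of genes with the largest lower values in Chd2mut/mut, Zfp948 and Zfp229, as the coding bases of the second finger found in each. Both stretches are 63 bases, or 21 codons, from GENCODE M21 transcripts of chromosome 17, with the codons of the zinc-binding cysteines and histidines in capitals.
Zfp948: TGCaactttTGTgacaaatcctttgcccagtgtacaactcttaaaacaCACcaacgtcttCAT
Zfp229: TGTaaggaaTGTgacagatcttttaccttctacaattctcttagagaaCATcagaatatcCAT
In all, 15 such fingers were found in the longest coding sequence of Zfp948 and 16 in that of Zfp229.

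Promoters are shown for the members with the 2 largest lower and the 2 largest higher differences among those with a single RefSeq promoter, so that the opposite ends of the range can be compared. Each is the 250 bases before the gene's start in build GRCm38.p6, written 5′ to 3′ on the gene's strand, with CpG dinucleotides in capitals. Zfp948 lies at chr17:21566728-21566977 (plus strand), Zfp229 at chr17:21733474-21733723 (plus strand), Zfp358 at chr8:3492888-3493137 (plus strand) and Zfp688 at chr7:127422035-127422284 (minus strand).
Zfp948: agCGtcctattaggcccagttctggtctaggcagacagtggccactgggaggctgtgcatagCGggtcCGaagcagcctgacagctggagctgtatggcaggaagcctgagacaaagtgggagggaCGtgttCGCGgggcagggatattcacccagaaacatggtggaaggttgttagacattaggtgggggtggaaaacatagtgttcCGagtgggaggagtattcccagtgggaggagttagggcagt
Zfp229: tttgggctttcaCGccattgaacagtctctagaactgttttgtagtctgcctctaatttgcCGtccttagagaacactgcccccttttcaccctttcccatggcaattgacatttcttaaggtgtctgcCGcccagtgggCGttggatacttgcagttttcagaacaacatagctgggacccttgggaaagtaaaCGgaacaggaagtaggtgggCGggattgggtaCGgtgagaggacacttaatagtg
Zfp358: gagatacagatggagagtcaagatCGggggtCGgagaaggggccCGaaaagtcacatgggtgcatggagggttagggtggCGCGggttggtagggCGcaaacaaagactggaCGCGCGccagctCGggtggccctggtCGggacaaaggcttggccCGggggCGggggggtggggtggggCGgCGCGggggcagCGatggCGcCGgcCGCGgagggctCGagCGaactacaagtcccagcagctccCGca
Zfp688: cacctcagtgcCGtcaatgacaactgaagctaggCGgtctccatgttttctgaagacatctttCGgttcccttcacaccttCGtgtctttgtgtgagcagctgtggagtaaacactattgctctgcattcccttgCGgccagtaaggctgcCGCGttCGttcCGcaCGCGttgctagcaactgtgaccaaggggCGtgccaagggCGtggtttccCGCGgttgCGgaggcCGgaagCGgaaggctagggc
The stretches of Zfp948 and Zfp229 hold 7 CpG each, that of Zfp358 holds 24 and that of Zfp688 holds 18. Their GC contents were 56.4%, 48.8%, 69.2% and 57.6% in the order shown. RefSeq promoter windows from 250 bases before to 50 bases after the start were found for 216 of the 260 genes, 268 windows in all. They held a median of 15 CpG, against 7 in all 32851 windows of the table. Those windows belong to 27025 genes, expressed or not, so Zfp name and expression cannot be told apart in this contrast. Among the Zfp-named genes, windows of those higher in Chd2mut/mut held a median of 16 CpG and 54.7% GC. Windows of those lower held 14 CpG and 56.3% GC, so the wide gap between the printed stretches was not seen over the group.

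Exact letters of 6 motifs were searched in those windows on both strands, none of them contained in another. CCAAT was found in 47.4% of the windows of Zfp-named genes and in 37.4% of all windows. The ETS-type CCGGAAG was found in 21.3% and 8.86%, the YY1-type AGATGGC in 8.96% and 6.399%, and the palindrome TGCGCA of the NRF1 site in 11.9% and 7.76%. The core of the ZNF143 site, CCCA and ATGC separated by any pair of bases, was found in 5.22% and 1.88%, and TATAAA in 7.46% and 13.62%. Between genes higher and lower in Chd2mut/mut (161 and 107 windows) the shares were 43.5% and 53.3% for CCAAT, 20.5% and 22.4% for CCGGAAG, and 2.48% and 9.35% for the ZNF143 core, the last being 4 and 10 windows. The other motifs went the other way, at 9.94% and 7.48% for AGATGGC, 12.4% and 11.2% for TGCGCA, and 8.07% and 6.54% for TATAAA. The shares of all windows again include genes that are not expressed and were not matched on level. Such matches are letters in a window and not measured sites, and no test was made.

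Most expressed Zfp-named genes were present at low levels in both genotypes. The median level was 3.84 FPKM in Chd2mut/mut and 3.60 FPKM in WT. On the mean of both genotypes the quartiles of the Zfp-named genes were 2.19, 3.67 and 8.35 FPKM, against a median of 11.2 FPKM for the 10384 other genes that reached the threshold, with small RNA genes and rows of several symbols left out. A mean of at least 10 FPKM was reached by 54 Zfp-named genes (20.8%) and by 53.0% of the other genes, and one of at least 100 FPKM by 2 (0.769%) and by 9.49%. The summed FPKM of the 260 genes was 2258 in Chd2mut/mut and 2202 in WT, which is 0.279% and 0.273% of all FPKM in the same order.

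**Figure D1:**
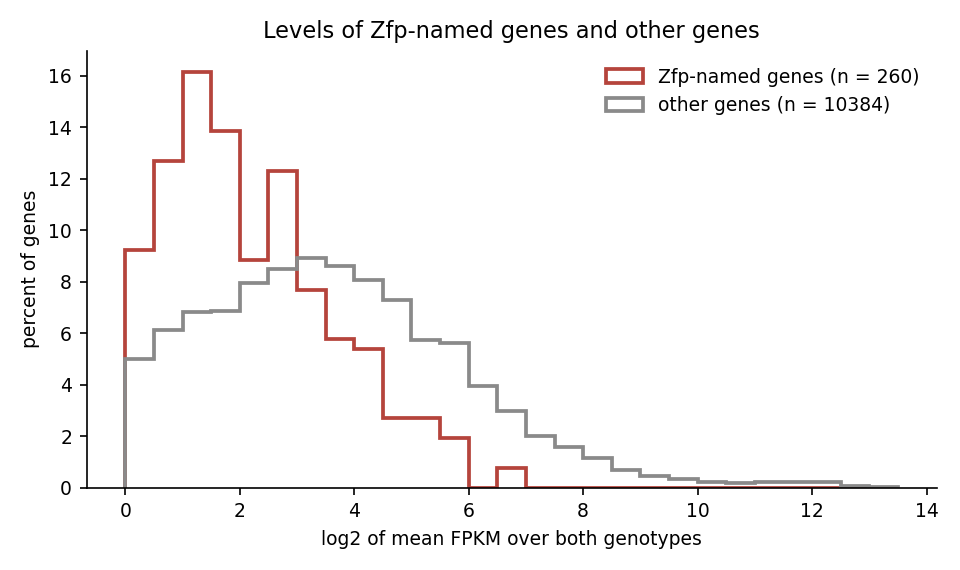
Distribution of expression levels: the x axis is log2 of the mean FPKM of both genotypes in steps of 0.5, and the y axis is the percent of genes in each group, for 260 Zfp-named genes (red) and 10384 other genes (grey). The red outline lies to the left of the grey one, with medians of 3.67 and 11.2 FPKM.

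The 8 most abundant genes of the group held 24.1% of its summed FPKM in Chd2mut/mut and 25.6% in WT, and 5 of them carried at most 2 recognisable C2H2 fingers. Zfp207, which encodes a spindle protein that binds the checkpoint protein Bub3, was at 114 FPKM in Chd2mut/mut and 123 FPKM in WT. Zfp428 was at 104 FPKM in Chd2mut/mut and 124 FPKM in WT. Zfp706, reported as a regulator of the exit from self-renewal in mouse ES cells, was at 61.4 FPKM in Chd2mut/mut and 66.2 FPKM in WT. The nucleolar Zfp330 was at 57.6 FPKM in Chd2mut/mut and 58.4 FPKM in WT, and the RNA-binding Zfp106 at 58.7 FPKM in Chd2mut/mut and 54.6 FPKM in WT. Zfp771 was the one of the 8 with the largest difference, at 61.0 FPKM in Chd2mut/mut against 47.5 FPKM in WT. Zfp296, a partner of Klf4 in ES cells, was at 45.1 FPKM in Chd2mut/mut and 46.9 FPKM in WT. Zfp259, now named Zpr1, was at 41.6 FPKM in Chd2mut/mut and 42.5 FPKM in WT.

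The threshold itself shapes the lower edge of the group. The 5 genes just inside it were Zfp182 (1.13 FPKM in Chd2mut/mut and 0.898 FPKM in WT), Zfp862 (1.136 and 0.956 FPKM), Zfp874a (1.07 and 1.04 FPKM), Zfp937 (1.13 and 1.002 FPKM) and Zfp26 (1.19 and 1.01 FPKM). The 5 just outside it were Zfp595 (1.03 FPKM in Chd2mut/mut and 0.962 FPKM in WT), Zfp11 (1.15 and 0.826 FPKM), Zfp28 (0.952 and 0.984 FPKM), Zfp3 (0.809 and 0.992 FPKM) and Zfp113 (1.02 and 0.785 FPKM). Of the 260 genes 255 were at 1 FPKM or more in both genotypes. The other 5, Zfp862, Zfp182, Zfp273, Zfp319 and Zfp661, reached it in Chd2mut/mut alone and were therefore bound to be higher there, while 0 genes passed through WT alone. Of the 92 genes below the threshold 10 were listed at 0 in both genotypes. Among the other 82 the values were higher in Chd2mut/mut for 42 and lower for 40, and none was called.

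None of the 260 expressed Zfp-named genes was called in the authors' deposited table, against 0.697% of the 10766 genes at this level (75 genes, 28 or 0.26% higher and 47 or 0.437% lower). The lowest q-values among the 260 in the authors' deposited table were 0.0531 for Zfp229, 0.115 for Zfp251 and 0.116 for Zfp948. A q-value under 0.5 was given there to 8 of them and one over 0.9 to 208. The authors' deposited table holds no unadjusted p-values, and a missing call at 2 libraries per genotype does not show that a gene was equal in both.

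Differences were small for nearly all members, as measured by log2(FPKM + 1) in Chd2mut/mut minus that in WT, a scale that understates the change of genes near 1 FPKM. Levels of the 2 genotypes correlated across the 260 genes with a Pearson r of 0.992, against 0.979 across all 10766, and genes are not independent replicates. The 10766 include small RNA genes and rows of several symbols, and r was not computed without them. The SD of the difference was 0.424 across the 10766, 0.225 across the 10384 other genes without such rows, and 0.154 across the 260. The difference was within 0.1 for 116 of the 260 genes, within 0.2 for 209 and within 0.3 for 242. Only Zfp948 passed 0.5, on the lower side, and none did on the higher side, while 2.72% of all genes at this level passed 0.5 in either direction (1.22% higher and 1.5% lower). Without small RNA genes and rows of several symbols the share was 1.95%, with 0.838% higher and 1.11% lower. With a pseudocount of 0.1 in place of 1, 6 Zfp-named genes passed 0.5. Past 0.3 lay 13 genes on the higher side and 5 on the lower.

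**Figure D2:**
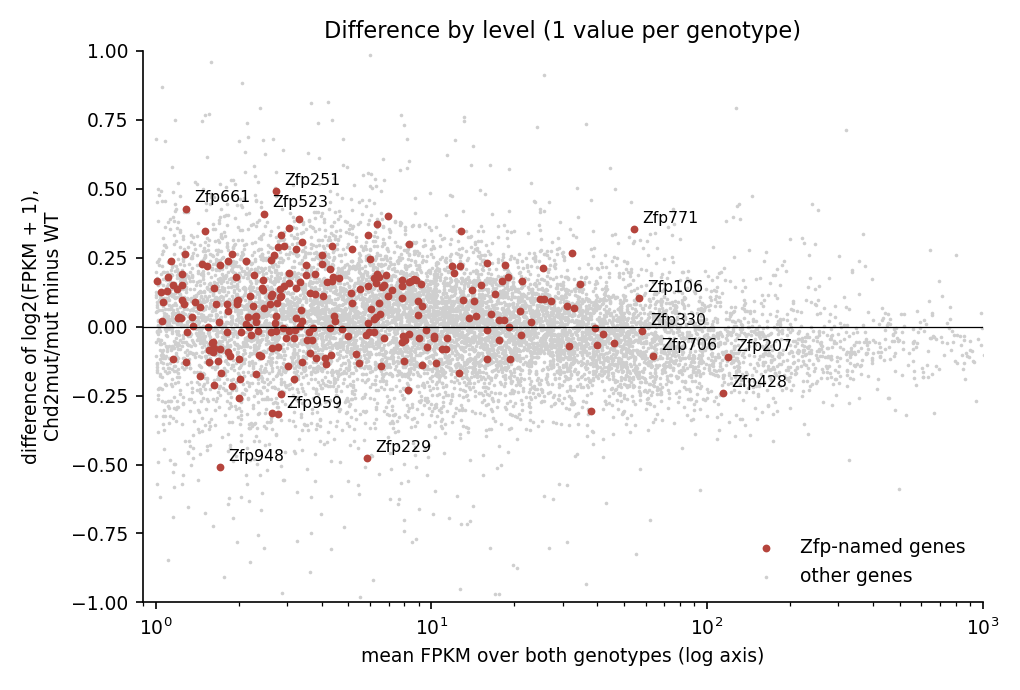
Difference by level: the x axis is the mean FPKM of both genotypes on a log axis and the y axis is the difference of log2(FPKM + 1), Chd2mut/mut minus WT, with 1 point per gene, Zfp-named genes in red and other genes in grey; 154 other genes lie outside the plotted range. The red points run from -0.51 (Zfp948) to 0.49 (Zfp251), and more of them lie above 0 than below.

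The 12 largest lower values came from chromosome 17 more than from any other chromosome, with Zfp948, Zfp229, Zfp959, Zfp53 and Zfp52 on it, and 8 of the 12 genes held a KRAB stretch. Of all 260 genes 36 lie on chromosome 17, of which 22 were higher in Chd2mut/mut, and 144 of the 260 held a KRAB stretch. Zfp948 was at 1.24 FPKM in Chd2mut/mut against 2.19 FPKM in WT, 0.566 times the WT level and a difference of -0.51. Zfp229 was at 4.72 FPKM in Chd2mut/mut against 6.96 FPKM in WT, a difference of -0.48. Zfp948 and Zfp229 are the genes whose fingers and promoters are printed above, and both have 0.134% or less of their 50-base stretches in common with another gene.

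Zfp959 was at 2.37 FPKM in Chd2mut/mut and 3.20 FPKM in WT. Zfp53 was at 1.73 FPKM in Chd2mut/mut and 2.28 FPKM in WT, and Zfp52 at 2.52 FPKM in Chd2mut/mut and 3.17 FPKM in WT. All 3 are KRAB genes. Of the rest, Zfp622, a maturation factor of the large ribosomal subunit, was the most abundant but for Zfp428, at 34.0 FPKM in Chd2mut/mut against 42.2 FPKM in WT, a difference of -0.31. Zfp36, which encodes the mRNA decay factor tristetraprolin and has CCCH fingers, was at 7.51 FPKM in Chd2mut/mut and 8.97 FPKM in WT. The differences of Zfp189, Zfp768, Zfp951 and Zfp428 were -0.22, -0.21, -0.19 and -0.24. Zfp600, at 2.24 FPKM in Chd2mut/mut and 3.03 FPKM in WT, has 83.3% of its 50-base stretches in other genes, so its counts could have been split and its value is uncertain.

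The 12 largest higher values were spread over 9 chromosomes and also held 8 KRAB genes. Zfp251, a KRAB gene with 11 fingers, was at 3.36 FPKM in Chd2mut/mut against 2.103 FPKM in WT, 1.597 times the WT level and a difference of 0.49. Zfp661, which passed the threshold through Chd2mut/mut alone, was at 1.63 FPKM there against 0.954 FPKM in WT. Zfp523, a paralogue of Zfp143, was at 2.97 FPKM in Chd2mut/mut and 1.99 FPKM in WT, a difference of 0.41, while Zfp143 itself was at 9.11 FPKM in Chd2mut/mut and 8.82 FPKM in WT.

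Zfp688, with a CpG-rich promoter as printed above, was at 8.05 FPKM in Chd2mut/mut and 5.86 FPKM in WT. Zfp358 was at 3.91 FPKM in Chd2mut/mut and 2.74 FPKM in WT. Neither differed by more than 0.40. Zfp771 had the highest level among these genes, and its value in Chd2mut/mut was 1.28 times that in WT. Zfp69, linked to diabetes risk in obese mice, was at 1.81 FPKM in Chd2mut/mut and 1.21 FPKM in WT. The differences of Zfp672, Zfp953 and Zfp777 were 0.37, 0.33 and 0.33. Zfp59 (14.4 FPKM in Chd2mut/mut and 11.2 FPKM in WT) and Zfp58 (3.56 and 2.56 FPKM in the same order) have 52.4% and 50.2% of their 50-base stretches in other genes and are uncertain for that reason.

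**Figure D3:**
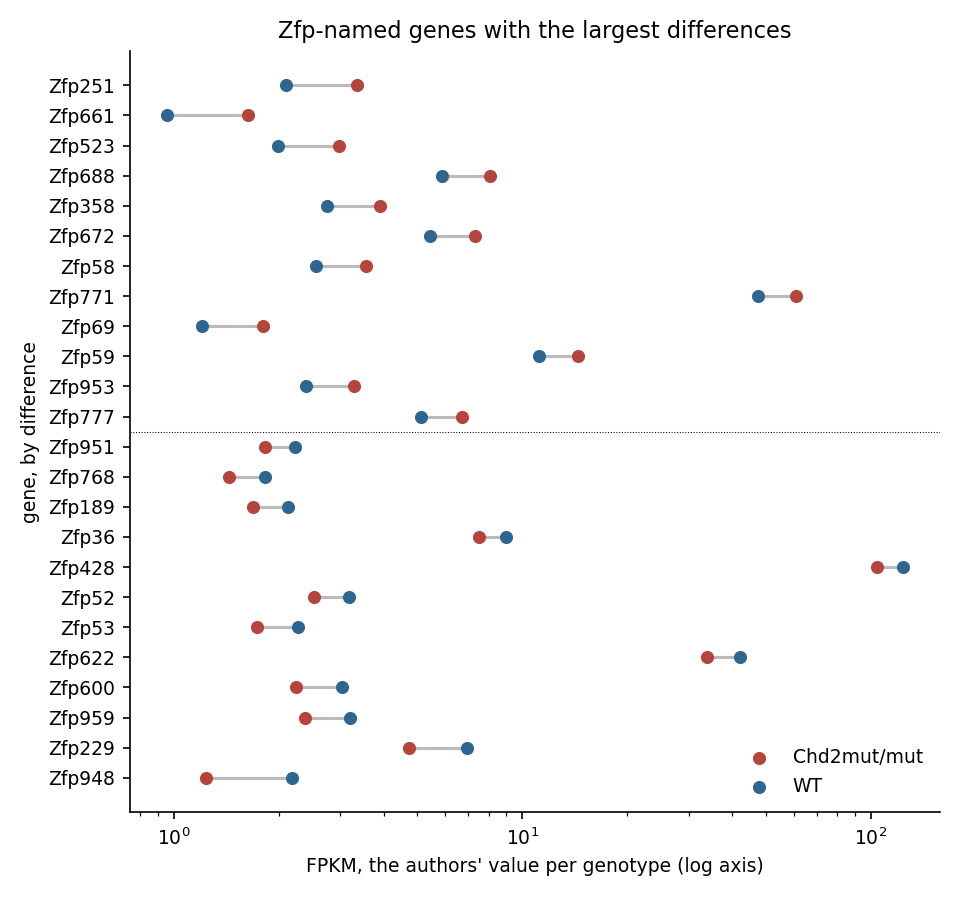
The 12 largest differences in each direction: the x axis is FPKM on a log axis, with 1 red point for Chd2mut/mut and 1 blue point for WT per gene and a grey line between them, and genes are ordered by the difference of log2(FPKM + 1). In the upper 12 genes the Chd2mut/mut point lies to the right, from Zfp251 at 3.36 against 2.103 FPKM down to Zfp777, and in the lower 12 it lies to the left, down to Zfp948 at 1.24 against 2.19 FPKM.

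More Zfp-named genes were higher than lower in Chd2mut/mut, by small amounts. Of the 260 genes 162 (62.3%) were higher and 98 (37.7%) lower, with a median difference of 0.058, quartiles of -0.040 and 0.16, and an SD across genes of 0.15. Of all genes at this level 49.6% were higher, with a median of -0.0012. Other genes weighted to the same levels, in 20 bins of mean FPKM, were higher in 55.5% of cases with a median of 0.022, which sets 62.3% against 55.5%. Without the 5 genes that passed through Chd2mut/mut alone the share was 61.6% of 255, against 55.8% of other genes of equal level. With 1 value per genotype no test of this difference is possible, and how far such a share varies between libraries of 1 genotype is unknown.

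The share was above that of other genes, weighted in the same way, in each class of level. At 1 to 2 FPKM 37 of 57 Zfp-named genes (64.9%) were higher, against 56.0% of other genes. That class holds the 5 genes that passed through Chd2mut/mut alone, and among genes at 1 FPKM or more in both genotypes it was 32 of 52 (61.5%) against 57.5%. The counts by length, KRAB box, fingers and cluster given further on include these 5 genes unless they are said to be left out. At 2 to 5 FPKM it was 58 of 95 (61.1%) against 58.5%, and at 5 to 10 FPKM 36 of 54 (66.7%) against 58.1%. The classes at 10 to 20 FPKM and at 20 FPKM or more gave 18 of 30 (60.0%) against 51.9% and 13 of 24 (54.2%) against 40.7%.

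The direction also moved with transcript length in all genes. Among other genes the share higher in Chd2mut/mut was 39.5%, 45.4%, 49.7% and 62.6% over 4 equal classes from the shortest to the longest transcripts. Among Zfp-named genes in the same classes it was 15 of 23 (65.2%), 42 of 87 (48.3%), 50 of 81 (61.7%) and 55 of 69 (79.7%). The other genes in these length classes were not weighted to the levels of the Zfp-named genes, unlike those by level above. The median transcript of the Zfp-named genes was 3519 bases with 44.8% GC, against 3214 bases and 50.1% GC for other genes. Other genes matched on level, length and GC content together were higher in 56.3% of cases, with a median of 0.024. The part of transcript length, or of what makes it move with the genotypes, in the direction of the Zfp-named genes was not tested beyond this matching.

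**Figure D4:**
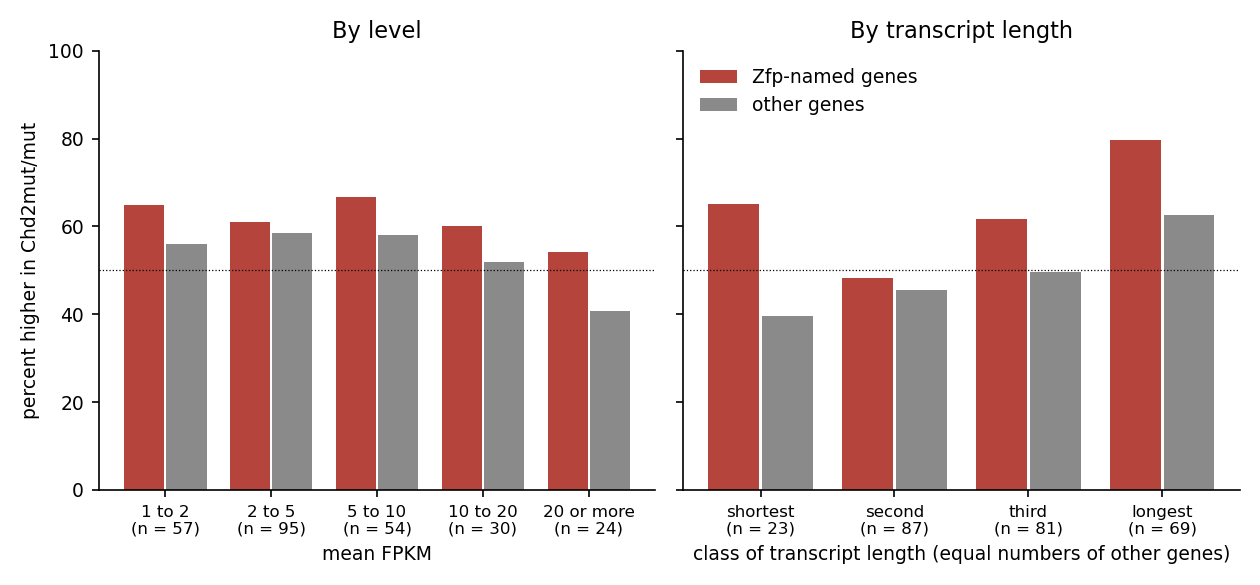
Share of genes higher in Chd2mut/mut: the y axis is the percent of genes with a higher value in Chd2mut/mut than in WT, for Zfp-named genes (red, number under each pair) and other genes (grey), by mean FPKM on the left and by 4 classes of transcript length on the right, with a dotted line at 50% and all 260 genes included. Grey bars on the left are weighted to the levels of the Zfp-named genes, and those on the right are not. The red bar is taller in all 9 pairs, and both colours are tallest in the longest class (79.7% and 62.6%).

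The direction was not limited to the Zfp name. Of 157 other genes at this level with 3 or more C2H2 fingers, 99 (63.1%) were higher in Chd2mut/mut, with a median difference of 0.040. Remaining genes of equal level gave 53.4% and 0.013. The median transcript of the 157 genes was 4168 bases, against 3214 bases for other genes. They were not matched on length or GC content, and the part of length in their share was not tested. Of these 157 genes 2 were called, against 0.697% of all genes at this level, a count too small to set them apart. Bcl6b, a transcriptional repressor, rose to 2.93 FPKM in Chd2mut/mut, against 1.35 FPKM in WT, with a q-value of 0.0103 in the authors' deposited table. Zeb1, a repressor of epithelial genes, fell to 0.754 FPKM in Chd2mut/mut, against 1.38 FPKM in WT, with a q-value of 0.0179 in the authors' deposited table. Zeb1 reached 1 FPKM in WT alone and was therefore bound to be lower in Chd2mut/mut. Klf15 and Zic2 passed 0.5 without a call, at 8.16 and 2.46 FPKM in Chd2mut/mut and at 5.34 and 1.42 FPKM in WT in that order.

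Genes with and without a KRAB box were higher at similar shares. A KRAB stretch was found in 144 of the 260 genes and none in 115, and 1, Zfp862, has no annotated coding sequence. KRAB genes were the less abundant class, at a median level of 2.73 FPKM against 6.85 FPKM. Of the KRAB genes 88 (61.1%) were higher in Chd2mut/mut, with a median difference of 0.038, against 56.8% and 0.028 in other genes of equal level. Of those without a KRAB stretch 73 (63.5%) were higher, with a median of 0.076, against 53.9% and 0.014. The difference between the classes was not tested.

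The number of fingers ranged widely, with a median of 10. Zfp142 had most, with 36, followed by Zfp462 with 33 and Zfp236 with 30. No C2H2 finger was found in Zfp185, Zfp259, Zfp330, Zfp36, Zfp365, Zfp839 and Zfp935. Genes with 0 to 2 fingers were higher in Chd2mut/mut in 11 of 24 cases, with a median difference of -0.0096. The counts were 31 of 54 (median 0.033) for 3 to 7 fingers, 71 of 105 (0.074) for 8 to 12 and 48 of 76 (0.081) for 13 or more. The lowest median thus belonged to genes that are Zfp by name with few or no fingers, a class that also had the highest level of the 4, at a median of 8.93 FPKM. Other genes weighted to the levels of these classes were higher in 50.2%, 54.6%, 55.9% and 57.1% of cases, from fewest to most fingers. Their medians rose in the same order, from 0.00055 to 0.030.

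Neighbouring Zfp-named genes did not all differ in the same direction. Chromosome 7 held 67 of the 260 genes (41 higher in Chd2mut/mut), chromosome 17 held 36 (22 higher) and chromosome 13 held 21 (15 higher). Runs of Zfp-named genes with starts at most 500 kb apart formed 10 clusters with 5 or more expressed members, 93 genes in all, of which 60 were higher with a median of 0.065. Outside clusters 102 of 167 were higher, with a median of 0.056.

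The cluster on chromosome 13 from Zfp708 to Zfp273 was the most one-sided, with 10 of 11 genes higher and a median of 0.17. These 10 include Zfp273, which passed the threshold through Chd2mut/mut alone (1.24 FPKM there against 0.979 FPKM in WT), and Zfp708 and Zfp58, which with Zfp273 have at least 20% of their 50-base stretches in other genes and uncertain values. Without these 3 genes 7 of 8 were higher, with a median of 0.13. All 11 are KRAB genes. Zfp87 was at 4.91 FPKM in Chd2mut/mut and 3.82 FPKM in WT, and Zfp459 at 19.1 FPKM in Chd2mut/mut and 16.9 FPKM in WT. The gene below 0 was Zfp493, at 2.02 FPKM in Chd2mut/mut and 2.06 FPKM in WT.

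The cluster on chromosome 17 from Zfp160 to Zfp13 held the 2 lowest differences of the group. It included Zfp948, Zfp229, Zfp53 and Zfp52, all lower, and yet 10 of its 17 genes were higher. Zfp760, whose start lies between those of Zfp948 and Zfp229, was at 2.76 FPKM in Chd2mut/mut and 2.48 FPKM in WT. Another cluster of that chromosome, Zfp871 to Zfp414, had 9 of 11 genes higher and a median of 0.12. On chromosome 7 the cluster Zfp180 to Zfp526 had 4 of 11 higher with a median of -0.056, and the cluster Zfp553 to Zfp646 had 7 of 9 higher with a median of 0.15.

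**Figure D5:**
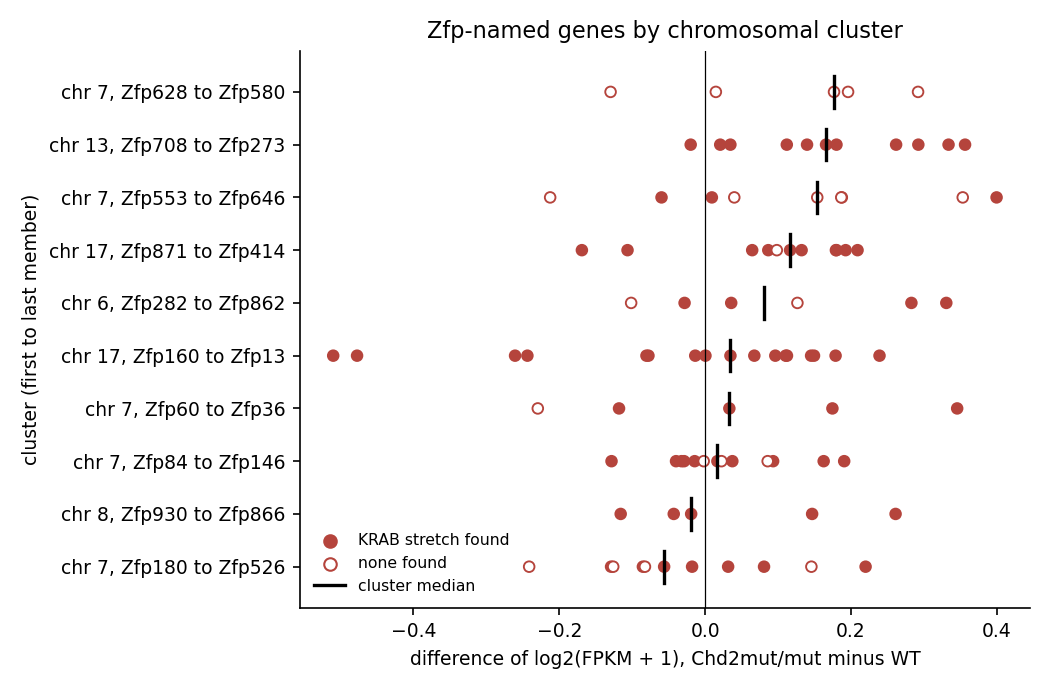
Differences within chromosomal clusters: each row is 1 of 10 clusters, ordered by median, the x axis is the difference of log2(FPKM + 1), Chd2mut/mut minus WT, each circle is 1 gene (filled where a KRAB stretch was found), and the black bar is the cluster median. The row Zfp708 to Zfp273 of chromosome 13 has 10 of 11 circles right of 0, and the row Zfp160 to Zfp13 of chromosome 17 reaches from -0.51 to 0.24.

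Similar sequence limits the values of some members. In 31 genes at least 20% of the 50-base stretches of the longest transcript also occurred in another gene, and 22 of these were higher and 9 lower in Chd2mut/mut. Zfp708 and Zfp935 were at 100%, Zfp960 at 82.7% and Zfp97 at 81.3%, so that single values of these genes are uncertain, while 173 genes were under 1%. Without the 31 genes 61.1% of 229 were higher, against 55.4% of other genes of equal level.

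By role, Zfp-named genes with known functions in ES cell transcription lay close to their WT levels, and none of the 14 expressed members of that list was called. Over all genes at this level 0.697% were called. At that share lists as short as this one and those below would mostly hold no call. Of these 9 were higher and 5 lower in Chd2mut/mut, with a median difference of 0.028 and a range of -0.058 to 0.22. Zfp281, which acts in the exit from naive pluripotency, was at 18.5 FPKM in Chd2mut/mut and 18.2 FPKM in WT. Zfp462, which acts with the H3K9 methyltransferases G9a and GLP, was at 8.17 FPKM in Chd2mut/mut and 7.53 FPKM in WT. The largest difference was that of Zfp322a, a regulator of Pou5f1 and Nanog, at 3.86 FPKM in Chd2mut/mut and 3.16 FPKM in WT. Zfp131 of this list is listed at 0 in both genotypes.

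KRAB genes known to silence retroelements or imprinted loci held no call among 10 expressed members, against 0.697% called over all genes at this level. Of the 10 genes 8 were higher and 2 lower, with a median of 0.13. Of all 260 Zfp-named genes 62.3% were higher, and the list was not matched on level. Zfp809, which recognises the primer binding site of murine leukemia virus, was at 16.7 FPKM in Chd2mut/mut and 16.1 FPKM in WT. Zfp568, a repressor of a placental Igf2 transcript, was at 28.2 FPKM in Chd2mut/mut and 26.4 FPKM in WT. Zfp445, a keeper of imprints, was at 14.7 FPKM in Chd2mut/mut and 13.8 FPKM in WT. Zfp819 had the largest higher value, at 9.28 FPKM in Chd2mut/mut and 7.36 FPKM in WT. Zfp534, at 30.7 FPKM in Chd2mut/mut and 32.3 FPKM in WT, and Zfp932, at 20.2 FPKM in Chd2mut/mut and 17.7 FPKM in WT, have 68.4% and 45.2% of their 50-base stretches in other genes, which leaves their values uncertain, as for Zfp600 and Zfp708. Both lower genes of the list, Zfp534 and Zfp600, are thus among the uncertain ones.

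Among 16 genes of the machinery through which KRAB proteins act no call was made, against 0.697% over all genes at this level. Their differences lay below 0 in 11 and above it in 5 (68.8% lower), with a median of -0.045. Their median level was 31.4 FPKM, and other genes of equal level were lower in 57.8% of cases, with a median of -0.026. Trim28 was at 973 FPKM in Chd2mut/mut and 1044 FPKM in WT. Setdb1 was at 25.6 FPKM in Chd2mut/mut and 28.6 FPKM in WT, and Uhrf1, which binds hemimethylated DNA, at 153 FPKM in Chd2mut/mut and 171 FPKM in WT. Cbx1, a heterochromatin protein, was at 219 FPKM in both genotypes. Atrx had the largest difference above 0, at 23.1 FPKM in Chd2mut/mut and 21.5 FPKM in WT.

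Zfp-named proteins of RNA and ribosome biology were the one role list of Zfp-named genes with more members lower (7) than higher (3). The median of the 10 was -0.025, and none was called, against 0.697% of all genes at this level. The list was not matched on level, and Zfp330, Zfp106, Zfp598 and Zfp622 were above 20 FPKM. Other genes weighted to the Zfp-named genes at 20 FPKM or more were lower in 59.3% of cases. Zfp598, the ubiquitin ligase of ribosome quality control, was at 39.3 FPKM in Chd2mut/mut and 39.4 FPKM in WT. Zfp326, which couples transcription elongation to splicing, was at 9.35 FPKM in Chd2mut/mut and 9.90 FPKM in WT. Zfp593, a factor of ribosome biogenesis, went the other way, at 20.1 FPKM in Chd2mut/mut and 17.1 FPKM in WT. Zfp622 and Zfp36, given above, had the lowest differences of the list. The signs of Zfp598 and Zfp330 turned to above 0 under quantile normalization, to 0.042 and 0.041, which would make it 5 lower and 5 higher.

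The remaining lists held no call either, which says little for lists this short at 0.697% called over all genes at this level. Of 8 chromatin and transcription cofactors 5 were higher and 3 lower, with a median of 0.090. Zfp451, a SUMO ligase, was at 15.97 FPKM in Chd2mut/mut and 14.3 FPKM in WT, and Zfp518b at 11.8 FPKM in Chd2mut/mut and 13.4 FPKM in WT. Zfp410, known for its control of the remodeler gene Chd4, was at 7.82 FPKM in Chd2mut/mut and 8.03 FPKM in WT.

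Of 7 genes of cell division and genome maintenance 5 were higher and 2 lower, with a median of 0.040. The largest difference in that list was that of Zfp365, at 3.15 FPKM in Chd2mut/mut and 2.40 FPKM in WT. Of 6 expressed genes of development and differentiation 5 were higher and 1 lower, with a median of 0.17. The one lower was Zfp423, a factor of cerebellar and adipocyte development, at 15.2 FPKM in Chd2mut/mut and 16.6 FPKM in WT. Zfp580 was at 13.01 FPKM in Chd2mut/mut and 11.2 FPKM in WT.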

How the data were processed

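RNA-seq of Chd2mut/mut and WT ES cells was analysed from 1 deposited table. Its FPKM values are the authors' value per gene and genotype over 2 libraries each. Beside them stand, per the file headers, the authors' log2 fold change (mutant over WT), q-value and call. The highest q-value of a called gene in the authors' deposited table is 0.0487 and the lowest of an uncalled gene 0.0531. How the q-values were computed is not stated. The submitters' processing notes name Cufflinks, TopHat2 2.1.0, bcl2fastq 2.17.1.14 and build mm9. Gene annotation and Cufflinks version: not given in the sources used here. Depth is unknown, so no counting interval is given.

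Genes whose mean FPKM was 1 or more were kept, and differences are those of log2(FPKM + 1). Shares and medians of other genes were weighted to the levels of the Zfp-named genes in 20 equal-count bins, a step tested on simulated data. No test was made on 1 value per genotype. The alternatives were a pseudocount of 0.1, a minimum of 5 FPKM or none, median centring, quantile normalization, 10 bins, and small RNAs kept among other genes.

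Transcript length, GC content, fingers (C-X2-4-C-X12-H-X3-5-H) and a KRAB profile of 33 residues came from GENCODE M21 (GRCm38), whose coding sequences were translated in place of the RefSeq proteins first planned for the finger counts. Chromosomes, gene order and promoters came from RefSeq (GRCm38.p6). Only names and order were carried over to the mm9-based values. Genes and lists were chosen with earlier results of these data known. Named genes are the 12 largest differences in each direction, the 8 most abundant, the 5 on either side of the threshold, members of role lists, those with most and fewest fingers, Chd2 and corepressor genes. The KRAB profile was settled after simpler patterns missed KRAB proteins. It, the finger classes, the cluster gap, the 20% split on shared sequence, the length and GC matching, the motifs and printed sequences, and the group of other C2H2 genes were chosen after the values were seen, as were Zfp87, Zfp493, Zfp760, Bcl6b, Zeb1, Klf15 and Zic2. Python 3.11.15, NumPy 2.4.6, pandas 2.3.3 and SciPy 1.17.1 were used.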

Additional observations from a re-analysis of the deposited data

How the results depend on the processing

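The authors' call is fixed and was not recomputed under any setting, so the missing calls could not depend on the processing. In the settings planned the share lower in Chd2mut/mut stayed between 37.7% and 40.4%. The median difference of the Zfp-named genes stayed between 0.036 and 0.072. The count past 0.5 was 1 in the values reported, 6 with a pseudocount of 0.1, which enlarges differences of low genes by construction, 2 after quantile normalization, and 0 among the 108 genes whose mean reached 5 FPKM. The 24 genes with the largest differences kept their direction, 9 of them being left at that level. Another pseudocount or level filter cannot turn a direction, so only median centring and quantile normalization could have done so. Of 340 values of 73 named genes under 5 settings 316 stayed within 1.5 times and 24 moved. Another level filter leaves the value of a gene as it is, so the values counted under such settings could not move. The sign turned in 4, all under quantile normalization, to 0.011 for Zfp219, 0.0024 for Zfp259, 0.041 for Zfp330 and 0.042 for Zfp598, and the cause was not tested. No paired analysis was possible because the columns hold 1 value per genotype, and no library could be left out for the same reason.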
